A study of Rattus norvegicus with 6 samples.

Results

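The genes described here encode the subunits of the mitochondrial respiratory chain, the 5 enzyme complexes of oxidative phosphorylation. They were chosen by gene symbol (the Nduf subunit families, Sdha to Sdhd, Uqcr, Cox4 to Cox8, Atp5 and the protein genes of mitochondrial DNA, without Ndufa4l2), with the identifier of the highest mean count kept for each symbol. This gave 98 genes of the 23802 in the deposited table, 85 in nuclear DNA and 13 in mitochondrial DNA. They were compared between whole lungs of male Sprague-Dawley rats labelled wild type in both groups: 3 samples taken 4 weeks after 1 injection of monocrotaline (MCT) at 60 mg/kg, and 3 samples from rats given saline in place of MCT. MCT is a plant alkaloid that injures the lung vessels and is used in rats as a model of pulmonary arterial hypertension. The labels give the MCT route as intraperitoneal in one place and subcutaneous in another, the saline route as subcutaneous, and no age. They do not say that each sample is a separate animal, so the p-values below speak to the spread of the 6 samples and part of that spread may be technical. Polyadenylated RNA was sequenced to between 13525912 and 17916134 summed counts per sample.

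Complexes I to IV pass electrons from NADH and succinate to oxygen and, at complexes I, III and IV, pump protons across the inner mitochondrial membrane, and complex V, the ATP synthase, makes ATP as the protons flow back. Complex II is built from nuclear genes alone, while the others combine nuclear subunits with core subunits made inside the mitochondrion from its own DNA. The mitochondrial genes are copied as long shared transcripts from a small circular genome and then cut apart, and the nuclear genes are copied singly, many of them from promoters with sites for NRF1 and ETS-family factors such as GABP.

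The nuclear genes of the chain differed little between the groups, most of them lying slightly higher in MCT lungs, while most mitochondrial genes lay lower in MCT lungs with a wide spread between samples. After a filter on low counts, 93 of the 98 genes were tested, 80 nuclear and all 13 mitochondrial. In edgeR's quasi-likelihood test with Benjamini-Hochberg adjustment over 15250 genes, 2 of the 93 rose in MCT lungs (Atp5mc1 and Sdhb) and 1 fell (the locus listed as Atp5j2), against 13.1% of all tested genes called, 8.01% higher and 5.11% lower. With library sizes computed without the mitochondrial genes the split was 4 higher (Atp5mc1, Sdhb, Cox5b and Ndufb2) and 0 lower, against 8.49% and 4.7% of all tested genes. DESeq2 called 7 higher, adding Cox5b, Ndufa11, Ndufb2, Ndufb7 and Uqcrq, and 3 lower, adding Mt-nd1 and Mt-nd5, against 10.5% and 7.75% of all tested genes. limma-voom called the same 3 genes as edgeR, against 12.4% of all tested genes. An unadjusted p under 0.05 was found for 12 of the 80 nuclear and 3 of the 13 mitochondrial genes, against 30% of all tested genes. In bulk lung, fewer cells of a type and less RNA per cell cannot be told apart.

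The median log2 fold change (MCT over control) of the 80 nuclear genes was 0.13, against -0.01 for all tested genes, and 62 of the 80 lay above 0 (77.5%, against 48.7% of all tested genes). The number above 0 was 62 to 67 under the other scalings and tests on all 6 samples, and 55 to 66 when any 1 sample was left out. In 24 of the 80 every MCT sample lay above every control sample, and in 2 every MCT sample lay below. Over all tested genes 18.4% lay wholly above and 17% wholly below. The 95% interval of the fold change lay within 1.5-fold in either direction for 59 of the 80 nuclear genes (73.8%), against 33.3% of all tested genes. Intervals narrow with abundance: at a mean of at least 30 CPM the shares were 57 of 69 nuclear genes (82.6%), against 55.4% of all tested genes at that level. For most of the nuclear genes these samples therefore bound the difference to less than 1.5-fold, while for the 13 mitochondrial genes they did so for 1, Mt-co3, with an interval of 0.690 to 1.34-fold.

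**Figure D1:**
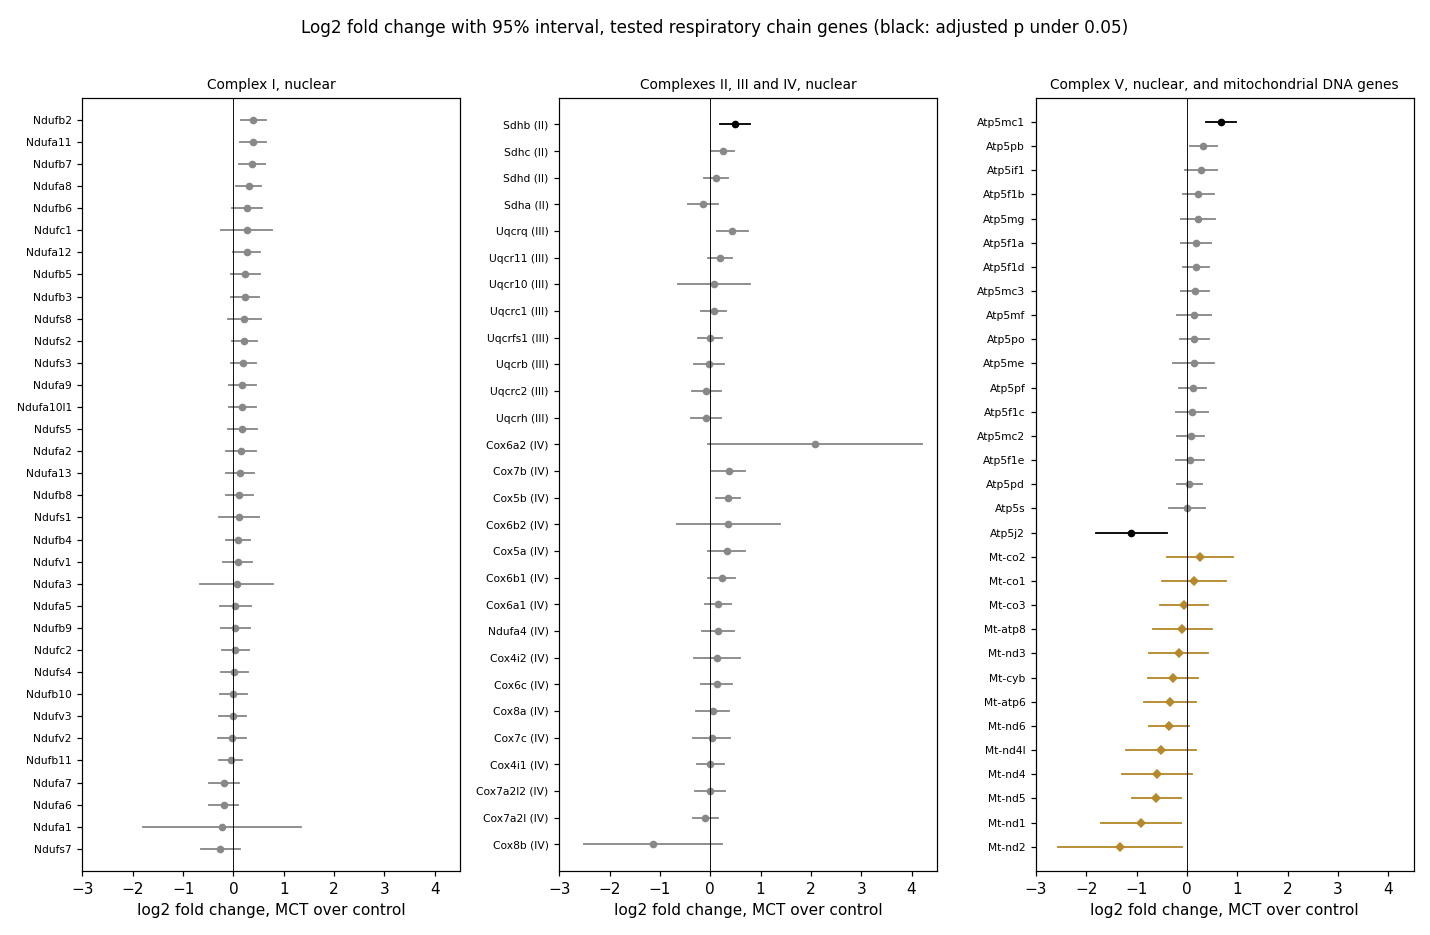
Log2 fold change, MCT over control, of the 93 tested genes with the 95% interval as a line, in 3 panels by complex. Circles are nuclear genes, diamonds are mitochondrial genes and black marks an adjusted p under 0.05 (edgeR); most nuclear points sit close to 0 on the right of the line, Cox6a2 (2.08) and Cox8b (-1.14) have wide intervals, and 11 of the 13 diamonds sit left of 0.

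**Figure D2:**
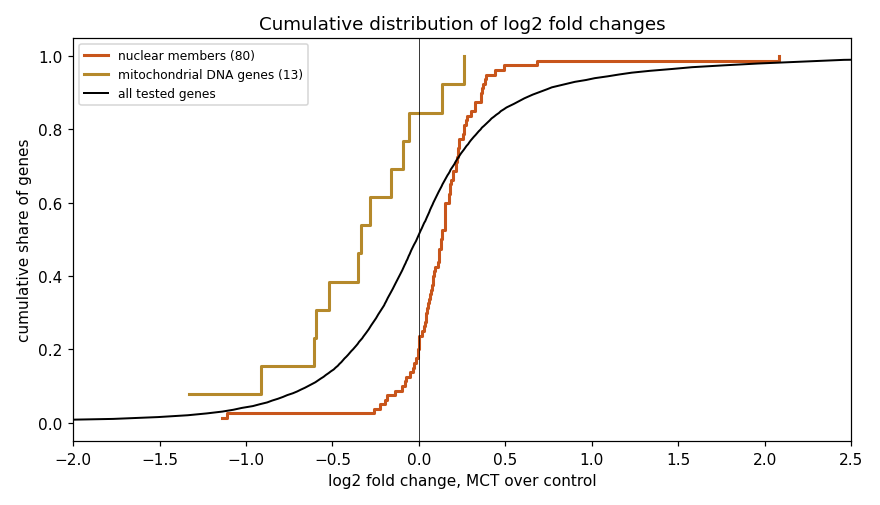
Cumulative share of genes (y axis) by log2 fold change, MCT over control (x axis), for 80 nuclear genes, 13 mitochondrial genes and all tested genes. The nuclear curve is steep and crosses its middle at 0.13, the curve of all tested genes at -0.01 and the mitochondrial curve at -0.33.

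Complex I, which takes electrons from NADH, has 34 nuclear genes here, and their median log2 fold change was 0.12. In the edgeR fit described first and in limma-voom none was called. Of the 34, 4 had an unadjusted p under 0.05 (edgeR), against 30% of all tested genes. DESeq2 called 3 of the 34 higher (Ndufb2, Ndufa11 and Ndufb7), against 10.5% of all tested genes. The smallest p belonged to Ndufb2, an accessory subunit of the membrane arm. It had 64.1, 56.4 and 57.0 CPM (TMM-normalized CPM, counts scaled to the library size) in MCT lungs, against 45.5, 46.1 and 44.0 CPM in control lungs. Each MCT sample lay above each control sample, with a log2 fold change of 0.39 (SE 0.11) that just missed the threshold (edgeR adjusted p = 0.0503). It passed in edgeR fits with library sizes without the mitochondrial genes and with a filter of at least 1 CPM in every sample. Ndufa11 and Ndufb7, also accessory subunits, differed by 0.38 and 0.37 on the same scale with edgeR adjusted p of 0.0601 and 0.0657.

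None of the core subunits of complex I that hold its flavin and iron-sulphur clusters passed a test in the fits made on all 6 samples. Ndufs8, which holds 2 of the clusters, had a log2 fold change of 0.22 (SE 0.15, edgeR adjusted p = 0.361). Ndufv1, which binds NADH, averaged 92.5 ± 11.8 CPM in MCT lungs and 87.4 ± 5.53 CPM in control lungs (SD, n = 3 each), and its interval ran from 0.870 to 1.29-fold. Ndufs1, the largest subunit, averaged 58.7 ± 10.1 CPM in MCT lungs and 54.3 ± 9.81 CPM in control lungs. Ndufs7, which carries the last cluster before ubiquinone, had 37.7, 56.8 and 50.9 CPM in MCT lungs, against 51.3, 65.2 and 57.8 CPM in control lungs. The groups overlapped, and its log2 fold change of -0.26 (SE 0.17) was the lowest of the 34 and did not pass the test (edgeR adjusted p = 0.343). Ndufa6, the nuclear complex I gene with the highest level per length, had 147 ± 8.77 FPKM in MCT lungs and 169 ± 24.4 FPKM in control lungs. Ndufa1 was counted at 15, 21 and 1 reads in MCT lungs and 17, 12 and 14 reads in control lungs, too few to bound a difference.

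Complex II oxidizes succinate and is also an enzyme of the TCA cycle. Sdhb, its iron-sulphur subunit, had 121, 118 and 99.6 CPM in MCT lungs, against 79.6, 72.5 and 89.6 CPM in control lungs. All 3 MCT samples lay above all 3 control samples, and Sdhb rose by 0.49 on the log2 scale (SE 0.13, 1.40-fold, edgeR adjusted p = 0.0405). The call ended when any 1 of the 6 samples was left out (edgeR adjusted p from 0.0553 to 0.132), while the log2 fold change stayed between 0.42 and 0.58. Sdha, the flavoprotein that binds to Sdhb, had 146, 173 and 150 CPM in MCT lungs, against 186, 153 and 178 CPM in control lungs. These overlapped, with a log2 fold change of -0.14 (SE 0.13, edgeR adjusted p = 0.508). In FPKM, the level per gene length, Sdhb stood at 193, 158 and 154% of Sdha in MCT lungs, against 99.5, 110 and 117% in control lungs, and the groups did not overlap in this ratio.

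The membrane anchors of complex II lay between those. Sdhc had 138, 139 and 138 CPM in MCT lungs, against 117, 118 and 113 CPM in control lungs. The samples within each group were close, no MCT sample reached down to a control sample, and the log2 fold change was 0.25 (SE 0.10, edgeR adjusted p = 0.131). Sdhd averaged 133 ± 8.49 CPM in MCT lungs and 123 ± 1.51 CPM in control lungs (edgeR adjusted p = 0.516).

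Complex III passes electrons from ubiquinol to cytochrome c, and its 8 nuclear genes had a median log2 fold change of 0.03 with 4 above 0 and 4 below. Uqcrq, a small membrane subunit, had 112, 86.7 and 98.5 CPM in MCT lungs, against 67.3, 81.0 and 70.6 CPM in control lungs. Each MCT sample lay above each control sample, with a log2 fold change of 0.44 (SE 0.13, edgeR adjusted p = 0.0617). DESeq2 called it. Uqcrfs1, the Rieske iron-sulphur protein, averaged 116 ± 5.39 CPM in MCT lungs and 116 ± 3.55 CPM in control lungs with an interval of 0.848 to 1.17-fold. The core proteins Uqcrc1 and Uqcrc2 had log2 fold changes of 0.07 and -0.08, both short of the test.

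Complex V genes include the catalytic head, the stalks and the rotor ring, and 16 of the 18 tested nuclear genes lay above 0, with a median log2 fold change of 0.15. The catalytic beta subunit, Atp5f1b, was the most abundant nuclear gene of the complex per length, at 438 ± 44.1 FPKM in MCT lungs and 378 ± 36.4 FPKM in control lungs. Its log2 fold change of 0.23 (SE 0.14) did not pass the test (edgeR adjusted p = 0.309). Atp5pb, the b subunit of the outer stalk, had a log2 fold change of 0.33 (SE 0.12, edgeR adjusted p = 0.102), and Atp5if1, which inhibits the enzyme when it runs in reverse, 0.28 (SE 0.14, edgeR adjusted p = 0.228).

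Subunit c, the protein of the rotor ring, is encoded by 3 nuclear genes whose precursors differ in the import sequence and share 1 mature protein. Atp5mc1 had 47.6, 37.7 and 42.7 CPM in MCT lungs, against 26.2, 26.7 and 26.9 CPM in control lungs. The lowest MCT sample lay above the highest control sample, and Atp5mc1 rose by 0.68 on the log2 scale (SE 0.13, 1.60-fold, edgeR adjusted p = 0.0132). Without control replicate 3 the call ended (edgeR adjusted p = 0.0538); it held in each of the other 5 fits that left out 1 sample. Atp5mc2 averaged 193 ± 8.61 CPM in MCT lungs and 183 ± 17.7 CPM in control lungs (edgeR adjusted p = 0.716), and Atp5mc3 114 ± 12.2 CPM in MCT lungs and 103 ± 7.37 CPM in control lungs (edgeR adjusted p = 0.445). Of the summed FPKM of the 3 genes, Atp5mc1 made up 15.8, 12.9 and 13.1% in MCT lungs, against 9.97, 8.99 and 10.5% in control lungs, and the groups did not overlap. Several of these genes have near-identical processed copies in rat and other mammals, and the sources used here do not say how shared reads were counted.

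**Figure D3:**
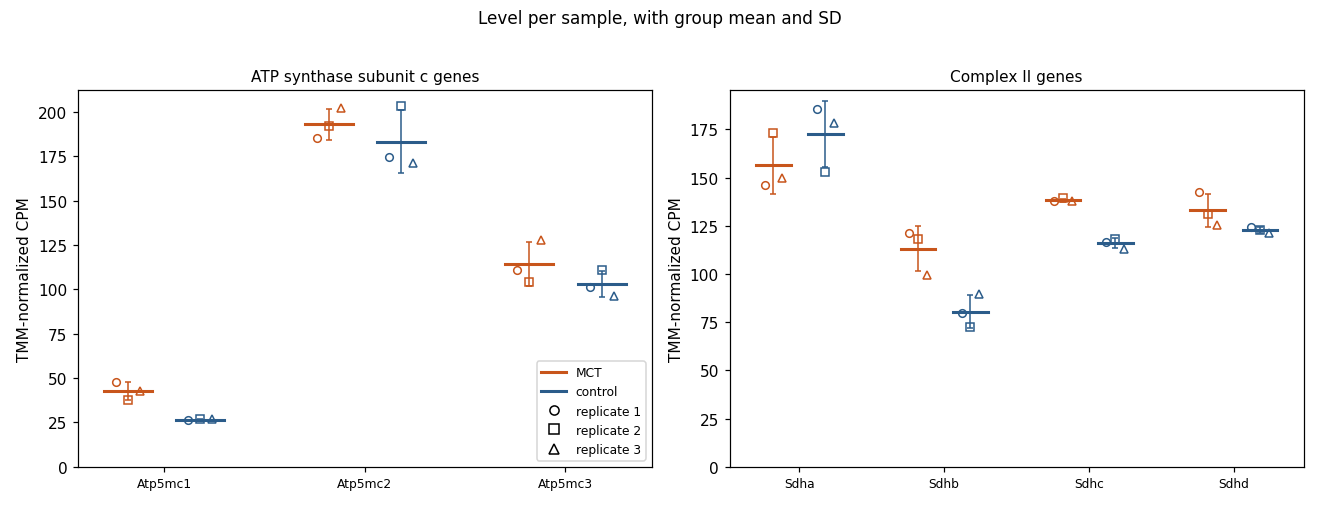
TMM-normalized CPM of the 3 subunit c genes (left) and the 4 complex II genes (right) in each sample, with the group mean as a bar and the SD as a line (n = 3 each), MCT left of control. Atp5mc1 (42.7 against 26.6 CPM), Sdhb (113 against 80.5 CPM), Sdhc and Sdhd show MCT samples that do not overlap the control samples, while Atp5mc2, Atp5mc3 and Sdha overlap.

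The 250 bases before the start of the 3 subunit c genes and of Sdhb are shown because they differ in their motifs while the first 3 genes make the same mature protein. They are from RefSeq on GRCr8, 5′ to 3′ on each gene's strand, with matches to the searched motifs on either strand in capitals: Atp5mc1 at chr10:81523346-81523595 (minus strand), Atp5mc2 at chr7:135678219-135678468 (minus strand), Atp5mc3 at chr3:79220665-79220914 (minus strand) and Sdhb at chr5:158547684-158547933 (plus strand).
Atp5mc1: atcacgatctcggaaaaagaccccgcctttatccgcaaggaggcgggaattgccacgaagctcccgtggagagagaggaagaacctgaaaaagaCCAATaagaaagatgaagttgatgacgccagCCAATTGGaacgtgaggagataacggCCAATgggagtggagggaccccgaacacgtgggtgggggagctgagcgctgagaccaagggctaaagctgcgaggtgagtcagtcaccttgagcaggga
Atp5mc2: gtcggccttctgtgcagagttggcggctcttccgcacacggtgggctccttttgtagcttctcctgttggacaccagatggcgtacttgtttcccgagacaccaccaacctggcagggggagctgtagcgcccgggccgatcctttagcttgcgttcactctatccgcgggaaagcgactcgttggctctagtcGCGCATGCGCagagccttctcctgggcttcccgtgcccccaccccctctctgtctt
Atp5mc3: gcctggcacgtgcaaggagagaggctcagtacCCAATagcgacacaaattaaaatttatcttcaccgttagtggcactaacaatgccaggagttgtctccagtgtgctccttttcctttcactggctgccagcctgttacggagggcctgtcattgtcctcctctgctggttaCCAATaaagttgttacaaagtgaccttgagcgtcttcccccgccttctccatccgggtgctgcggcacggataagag
Sdhb: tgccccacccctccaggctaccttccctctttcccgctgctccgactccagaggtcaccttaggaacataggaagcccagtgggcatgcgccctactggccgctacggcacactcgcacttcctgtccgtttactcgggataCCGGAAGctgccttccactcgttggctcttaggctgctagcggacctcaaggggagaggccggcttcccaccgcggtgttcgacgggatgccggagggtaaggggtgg

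The Atp5mc1 window held 4 CCAAT matches, of which one pair overlaps on opposite strands, and the Atp5mc3 window held 2. The Atp5mc2 window held 1 match to the NRF1 motif (GCGCA, any base, GCGC) and the Sdhb window 1 match to CCGGAAG, an ETS motif. Over the chain, 71 nuclear genes matched the RefSeq promoter table by symbol. The NRF1 motif was in 14.1% of their windows, against 4.17% of all 27457 promoters, and the ETS motif in 25.4%, against 7.74%. The SP1 motif GGGCGG was in 32.4% against 32.4%, CCAAT in 33.8% against 34.3%, the YY1 motif AAGATGGC in 2.82% against 1.69% and TATAAA in 8.45% against 13.1%. These are counts of letters, not of binding, and no test was made of them.

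The call in the lower direction came from a different kind of entry. Atp5j2 is an older symbol of Atp5mf, and in the deposited table it names a locus assembled from the reads, with 33, 78 and 40 reads in MCT lungs against 90, 97 and 143 reads in control lungs. Each MCT sample was below each control sample, and it fell by 1.11 on the log2 scale (SE 0.31, edgeR adjusted p = 0.0491). The call ended without MCT replicate 1 or 3 or any 1 control sample (edgeR adjusted p from 0.0695 to 0.152). Atp5mf itself, a membrane subunit of complex V, averaged 134 ± 22.4 CPM in MCT lungs and 121 ± 12.9 CPM in control lungs and was not called (edgeR adjusted p = 0.548).

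Complex IV, cytochrome c oxidase, reduces oxygen, and several of its nuclear subunits exist in forms that differ by tissue. Its 16 tested nuclear genes had a median log2 fold change of 0.14. In the edgeR fit described first and in limma-voom none was called. An unadjusted p under 0.05 (edgeR) was found for 2 of the 16, against 30% of all tested genes. DESeq2 called 1 of the 16 higher, against 10.5% of all tested genes. That gene was Cox5b, a matrix-side subunit, with 64.8, 60.5 and 62.8 CPM in MCT lungs, against 46.5, 48.7 and 51.1 CPM in control lungs. The groups did not overlap, with a log2 fold change of 0.36 (SE 0.11, edgeR adjusted p = 0.0564). The edgeR fit with library sizes without the mitochondrial genes called Cox5b as well. Cox6a1, the common form of subunit 6a and the most abundant nuclear gene of the chain per length, had 584 ± 15.7 FPKM in MCT lungs and 529 ± 42.6 FPKM in control lungs (edgeR adjusted p = 0.421). Cox7b, a membrane subunit, had a log2 fold change of 0.36 (SE 0.15, edgeR adjusted p = 0.138), and Cox7a2l, which links complexes III and IV, -0.10 (SE 0.11, edgeR adjusted p = 0.600).

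Cox4i2 is the form of subunit 4 typical of lung and Cox4i1 the form found in all tissues. Cox4i1 averaged 279 ± 7.34 CPM in MCT lungs and 279 ± 22.0 CPM in control lungs, with an interval of 0.832 to 1.21-fold. Cox4i2 had 19.0, 31.4 and 27.9 CPM in MCT lungs, against 26.2, 20.6 and 24.5 CPM in control lungs. These overlapped (edgeR adjusted p = 0.697), and in FPKM Cox4i2 stood at 4.63, 8.02 and 6.82% of Cox4i1 in MCT lungs, against 6.82, 4.68 and 6.36% in control lungs. Ndufa4l2, a hypoxia-induced relative of the complex IV subunit Ndufa4 that the choice of genes leaves out, had a log2 fold change of 0.07 (SE 0.21, edgeR adjusted p = 0.845), and Ndufa4 itself 0.15 (SE 0.14).

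The forms typical of heart and skeletal muscle were counted at low levels. Cox6a2 had 27, 7 and 17 reads in MCT lungs, against 1, 0 and 12 reads in control lungs. MCT replicate 2 fell below control replicate 3, and the log2 fold change of 2.08 (SE 0.93) did not pass the test (edgeR adjusted p = 0.174). Cox8b had 3, 31 and 26 reads in MCT lungs, against 43, 32 and 61 reads in control lungs, with a log2 fold change of -1.14 (SE 0.60, edgeR adjusted p = 0.241). Cox7a1 had at most 16 reads in any sample and was not tested, like Atp5md. The testis forms Cox7b2 and Cox8c and the pseudogene Cox6c-ps1 had no read in any sample, which allows up to 3 reads per library, or at most 0.222 CPM. The third testis form, Cox6b2, had 41, 48 and 24 reads in MCT lungs, against 46, 13 and 31 reads in control lungs (edgeR adjusted p = 0.645), beside the common Cox6b1 at 39.1 ± 0.83 CPM in MCT lungs and 33.5 ± 2.01 CPM in control lungs.

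Lung samples can carry muscle from large vessels and neighbouring tissue. The summed CPM of 10 cardiac muscle markers was 59.7, 31.3 and 65.6 in MCT lungs, against 26.4, 31.7 and 54.7 in control lungs. The defining atrial gene Nppa was at 0 reads in all 6 samples, Myh7 was counted in control replicate 3 alone (2 reads), and of the 5 markers tested 0 were called (edgeR; 1 with an unadjusted p under 0.05, Pln). Skeletal muscle markers summed to 33.3, 9.37 and 21.5 CPM in MCT lungs, against 7.52, 8.56 and 8.03 CPM in control lungs, and of 3 tested Acta1 rose (log2 fold change 3.56, edgeR adjusted p = 0.0390). That call was lost without MCT replicate 1 or 3 or any 1 control sample (edgeR adjusted p from 0.0894 to 0.129). The 3 samples with the highest Cox6a2, MCT replicates 1 and 3 and control replicate 3, also had the highest cardiac sums. The other muscle forms differed from this: Cox8b was lowest in MCT replicate 1 (3 reads) and highest in control replicate 3 (61 reads). Cox7a1 had 4 and 2 reads in MCT replicates 1 and 3, and 16 reads in control replicate 3. The part of muscle tissue in the Cox6a2 values was not tested.

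The 13 mitochondrial genes encode the membrane core of complex I (7 Mt-nd genes), cytochrome b of complex III (Mt-cyb), the catalytic core of complex IV (Mt-co1 to Mt-co3) and Mt-atp6 and Mt-atp8 of complex V. They were far more abundant per length than the nuclear genes, with means over the 6 samples from 300 to 10506 FPKM and a median of 2588 FPKM, against 1.47 to 556 FPKM and a median of 96.7 FPKM over the 80 tested nuclear genes. Their median log2 fold change was -0.33, and 11 of the 13 lay below 0 under each scaling tried. The number below 0 was 8 to 12 when any 1 sample was left out, with 8 without MCT replicate 2 or control replicate 2. None was called by edgeR or limma-voom. Of the 13, 3 had an unadjusted p under 0.05 (edgeR; Mt-nd1, Mt-nd2 and Mt-nd5), against 30% of all tested genes. DESeq2 called Mt-nd1 and Mt-nd5 lower, against 7.75% of all tested genes.

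Control replicate 1 stood apart in Mt-nd1, Mt-nd2, Mt-nd4 and Mt-nd4l, at 1.87 to 4.17 times the mean of the other control samples. It did not do so over the 13 genes as a set: the median absolute log2 deviation from the mean of the other control samples was 0.45 in control replicate 1, 0.60 in control replicate 2 and 0.45 in control replicate 3. Mt-nd2 had 1430, 1456 and 2149 CPM in MCT lungs, against 8542, 1917 and 2177 CPM in control lungs. The value in control replicate 1 was 4.17 times the mean of the other control samples, and without it the log2 fold change of Mt-nd2 was -0.28 in place of -1.33. Mt-nd1 had 1420, 1702 and 2047 CPM in MCT lungs, against 5264, 2388 and 2080 CPM in control lungs. No MCT sample reached a control sample in Mt-nd1, at a log2 fold change of -0.91 (SE 0.35, edgeR adjusted p = 0.119) with control replicate 1 and -0.37 (SE 0.21) without it. Mt-nd4 had 1994, 1703 and 2339 CPM in MCT lungs, against 4692, 2233 and 2190 CPM in control lungs, and its log2 fold change was -0.59 with control replicate 1 and -0.13 without it.

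Mt-nd5, the proton-pumping subunit at the far end of the membrane arm, depended less on that sample. It had 768, 643 and 990 CPM in MCT lungs, against 1404, 1294 and 962 CPM in control lungs. MCT replicate 3 and control replicate 3 overlapped, with a log2 fold change of -0.61 (SE 0.21, edgeR adjusted p = 0.0945) and of -0.49 (SE 0.23) without control replicate 1. Mt-nd6, the single protein gene read from the light strand, averaged 196 ± 30.8 CPM in MCT lungs and 250 ± 44.9 CPM in control lungs (edgeR adjusted p = 0.215), and the sources used here do not say if the counts are by strand. Mt-nd4l averaged 73.6 ± 24.4 CPM in MCT lungs and 105 ± 41.0 CPM in control lungs. Mt-nd3 averaged 446 ± 105 CPM in MCT lungs and 499 ± 168 CPM in control lungs.

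The 6 mitochondrial genes of the other complexes had log2 fold changes from -0.33 to 0.26, none with an unadjusted p under 0.05 (edgeR). Mt-co1, the most abundant gene of the chain, averaged 17019 ± 1292 CPM in MCT lungs and 15534 ± 5011 CPM in control lungs, so that the control samples varied more than the groups differed. Mt-co2 had 4458, 4016 and 4569 CPM in MCT lungs, against 2608, 5463 and 2810 CPM in control lungs, which overlapped (log2 fold change 0.26, SE 0.29), and Mt-co3 had a log2 fold change of -0.06 (SE 0.21). Mt-cyb had 3496, 3068 and 4540 CPM in MCT lungs, against 4187, 5340 and 3965 CPM in control lungs, which overlapped (log2 fold change -0.28, SE 0.22, edgeR adjusted p = 0.427). Mt-atp6 stood at -0.33 (SE 0.23) and Mt-atp8 at -0.09 (SE 0.26). Mt-atp8 overlaps Mt-atp6, and Mt-nd4l overlaps Mt-nd4, on the mitochondrial genome, and copies of these genes lie in nuclear DNA, so the split of reads within those pairs is uncertain. Without control replicate 1 the median of the 13 was -0.16, with values from -0.49 to 0.11 and an unadjusted p under 0.05 for 0 of 13 (edgeR).

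**Figure D4:**
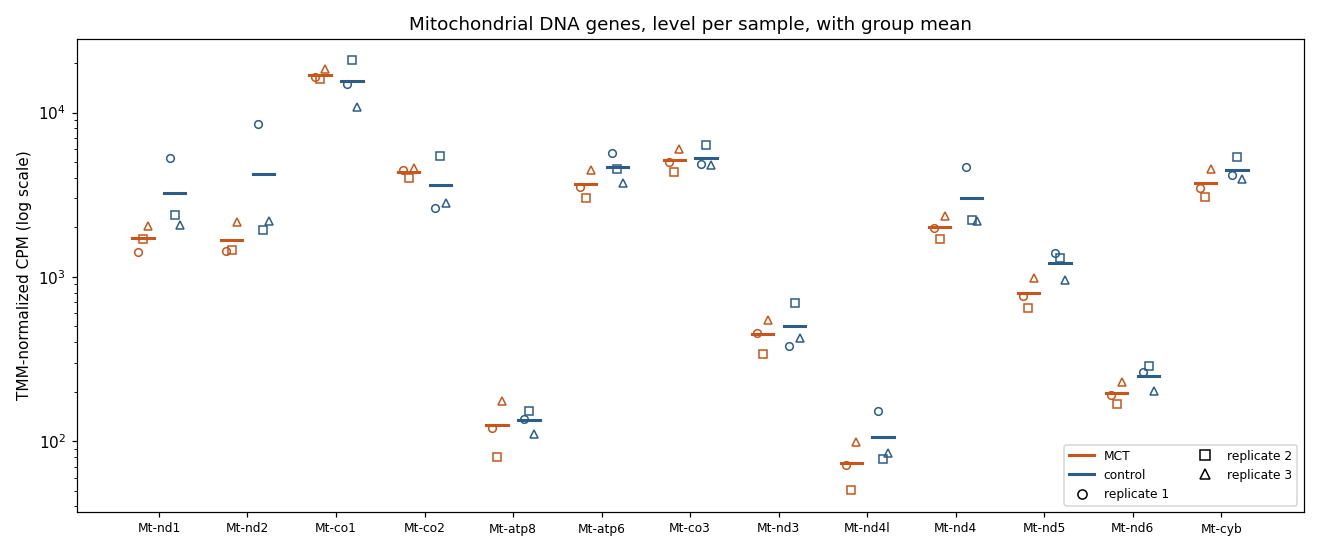
TMM-normalized CPM on a log scale of the 13 mitochondrial genes in genome order, per sample, with the group mean as a bar (n = 3 each), MCT left of control. Control replicate 1 (blue circles) lies well above the other samples in Mt-nd2 (8542 CPM), Mt-nd1 (5264 CPM) and Mt-nd4 (4692 CPM).

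As a share of all counts, the 13 mitochondrial genes made up 3.96, 3.62 and 4.65% in MCT lungs (4.08 ± 0.52%, SD, n = 3) and 5.21, 5.11 and 3.55% in control lungs (4.62 ± 0.93%, SD, n = 3). Control replicate 3 had the lowest share of the 6, so the groups overlapped. The 85 nuclear genes made up 0.822, 0.742 and 0.766% in MCT lungs and 0.664, 0.727 and 0.757% in control lungs, where MCT replicate 2 lay below control replicate 3. The 95% Wilson intervals of these shares were at most 0.0235 percentage points wide and cover counting error only. For each nuclear count there were 4.81, 4.89 and 6.06 mitochondrial counts in MCT lungs, against 7.84, 7.03 and 4.70 in control lungs, again with overlap.

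Within the mitochondrial counts, the 7 Mt-nd genes made up 16.1, 16.5 and 18% in MCT lungs, against 38.9, 17.3 and 23.6% in control lungs. Control replicate 1 held the highest value and control replicate 2 lay within the range of the MCT samples. Within a sample, Mt-nd5 stood at 3.94, 3.37 and 4.52% of the Mt-co1 FPKM in MCT lungs, against 7.90, 5.25 and 7.51% in control lungs. The groups did not overlap in this ratio, which was not tested and does not tell which of the 2 genes, if either, differed. edgeR called neither (adjusted p = 0.0945 for Mt-nd5 and 0.794 for Mt-co1), while DESeq2 called Mt-nd5. The other FPKM ratios computed between mitochondrial genes overlapped. Mt-nd2 stood at 12.9, 13.4 and 17.3% of Mt-co1 in MCT lungs, against 84.7, 13.7 and 29.9% in control lungs. Mt-nd4 stood at 47.3, 46.0 and 42.7% of Mt-cyb in MCT lungs, against 92.9, 34.7 and 45.8% in control lungs.

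**Figure D5:**
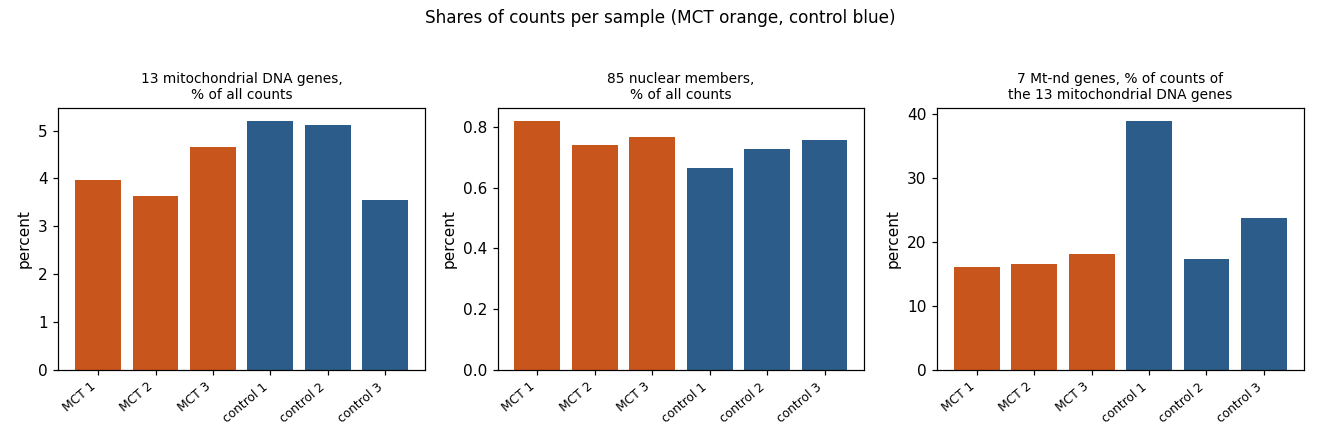
Percent of counts per sample, MCT (orange) left of control (blue): the 13 mitochondrial genes of all counts, the 85 nuclear genes of all counts, and the 7 Mt-nd genes of the mitochondrial counts. The first 2 panels overlap between groups, and in the third control replicate 1 stands at 38.9% against 16.1 to 23.6% in the other 5 samples.

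Other mitochondrial gene groups were read from the same edgeR fit, by counts and medians and without a test of the group. Of 23 regulators of mitochondrial gene expression, 0 rose and 1 fell, against 8.01% of all tested genes called higher and 5.11% lower. Their median log2 fold change was 0.17. The gene that fell was Ppargc1a, a coactivator of mitochondrial biogenesis, which had 0.678, 1.24 and 0.911 CPM in MCT lungs, against 2.20, 2.31 and 3.02 CPM in control lungs. The groups did not overlap at these low counts, and the log2 fold change was -1.40 (SE 0.36, edgeR adjusted p = 0.0377). Pprc1, a related coactivator, had a log2 fold change of 0.52 (SE 0.15, edgeR adjusted p = 0.0536), and Polrmt, the mitochondrial RNA polymerase, -0.34 (SE 0.13, edgeR adjusted p = 0.110). Nrf1 and Tfam, which encode a promoter factor of the nuclear genes and the packaging factor of mitochondrial DNA, had log2 fold changes of -0.01 (SE 0.12) and -0.08 (SE 0.11).

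In the groups of genes that build, feed and import into mitochondria, the calls below compare with 8.01% of all tested genes called higher and 5.11% called lower, and the shares above 0 with 48.7% of all tested genes. Of 77 tested genes of the mitochondrial ribosome 3 rose (Mrps18b 0.59, Mrpl55 0.56 and Mrpl17 0.45 on the log2 scale) and 0 fell, with a median of 0.15 and 80.5% above 0. Of 42 assembly factors of the complexes 1 rose (Coa4, 0.50) and 0 fell, with a median of 0.07 and 64.3% above 0. Of 19 TCA cycle genes 2 rose and 0 fell, with a median of 0.18 and 73.7% above 0. Pc, which makes oxaloacetate from pyruvate, had 43.1, 35.0 and 36.6 CPM in MCT lungs, against 23.0, 19.1 and 14.6 CPM in control lungs, and rose by 1.02 (SE 0.18, edgeR adjusted p = 0.0112). Mdh2, the malate dehydrogenase of the matrix, rose by 0.39 (SE 0.10, edgeR adjusted p = 0.0443). Of 25 genes of mitochondrial mass and import 1 rose (Timm23 of the inner membrane channel, 0.45) and 0 fell, with a median of 0.21 and 96% above 0. Of 12 genes of fission, fusion and mitophagy 1 rose (the protease Oma1, 0.84) and 0 fell, with a median of -0.09 and 41.7% above 0. An unadjusted p under 0.05 (edgeR) was found for 1 of the 12 higher and 3 lower, against 30% of all tested genes. All MCT samples lay above all control samples in 3 and below in 4, against 18.4% and 17% of all tested genes.

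Of 17 tested antioxidant, uncoupling and hypoxia genes linked to mitochondria, 3 rose and 2 fell, against 8.01% and 5.11% of all tested genes. Their median log2 fold change was 0.18. Prdx5, a peroxiredoxin, had 439, 274 and 334 CPM in MCT lungs, against 156, 174 and 164 CPM in control lungs, and rose by 1.08 (SE 0.18, edgeR adjusted p = 0.00769). Sod2, the manganese superoxide dismutase, rose by 1.49 (SE 0.36, edgeR adjusted p = 0.0311) and Higd1a, a hypoxia-induced partner of complex IV, by 0.55 (edgeR adjusted p = 0.0396). Ucp3, an uncoupling protein homologue, had 1.42, 0.415 and 1.12 CPM in MCT lungs, against 5.46, 6.55 and 4.37 CPM in control lungs, and fell by 2.47 on the log2 scale (SE 0.43, edgeR adjusted p = 0.00974). Epas1, which encodes the hypoxia factor HIF-2 alpha, fell by 1.08 (SE 0.21, edgeR adjusted p = 0.0137).

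Of these companion calls, Pc, Prdx5 and Ucp3 held in each of the 6 fits that left out 1 sample. The Epas1 call ended without control replicate 2 (edgeR adjusted p = 0.0531), and the Oma1 call without MCT replicate 1, control replicate 2 or control replicate 3 (0.0646 to 0.0824). The Sod2 call ended without MCT replicate 3 or any 1 control sample (0.0638 to 0.107). The calls of Coa4, Mdh2, Mrpl55 and Higd1a ended without any 1 of the 6 samples, those of Ppargc1a, Timm23 and Mrpl17 without any 1 but MCT replicate 2, and that of Mrps18b without any 1 but control replicate 1 (edgeR adjusted p from 0.0519 to 0.147).

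Markers of several lung cell types moved between the groups as well, where 8.01% of all tested genes were called higher and 5.11% lower. All 4 tested macrophage markers rose (summed level 642, 444 and 484 CPM in MCT lungs, against 242, 182 and 196 CPM in control lungs), and so did all 5 proliferation markers (189, 171 and 158 CPM against 44.6, 34.3 and 39.3 CPM). Of 5 endothelial markers 2 fell (Tek and Cdh5; summed level 1067, 2064 and 1445 CPM in MCT lungs, against 2618, 2458 and 2173 CPM in control lungs). Of 5 alveolar type 2 markers 2 fell (Slc34a2 and Abca3; 8645, 14479 and 16454 CPM against 20986, 19952 and 19531 CPM). Of 5 smooth muscle and pericyte markers 1 rose (Acta2), of 3 tested fat markers 1 rose (Fabp4, which macrophages and endothelium also express) and of 5 ciliated cell markers 0 were called (edgeR; 0 with an unadjusted p under 0.05). The calls of Cdh5 and Acta2 ended without MCT replicate 1 or 3 or any 1 control sample, that of Abca3 without MCT replicate 1 or 2 or any 1 control sample, and that of Slc34a2 without MCT replicate 2 or any 1 control sample (edgeR adjusted p from 0.0600 to 0.150). Acta2 was also not called by limma-voom. The Tek, Fabp4, macrophage and proliferation calls held in each of the 6 fits that left out 1 sample. The part of these shifts in cell type markers in the values of the respiratory chain genes was not tested.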

How the data were processed

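Polyadenylated RNA of 3 MCT and 3 control rat lung samples was analysed. The sample titles give the group and replicate number. For every gene and sample the authors deposited, per the file headers, an estimated count and an FPKM value, from reads mapped with Bowtie2 and TopHat2 2.0.3.12 to Rnor_6.0, per the submitters' processing notes. The sources used here name neither the counting tool nor the annotation release. Between 90.7% and 91.5% of the deposited estimated counts above 0 were whole; the tests had been set out for whole counts, so the values were rounded. The deposited FPKM values gave levels between genes.

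All 6 samples were fitted together with edgeR 4.0.16 in R 4.3.3 (quasi-likelihood test), with TMM scaling, filterByExpr (minimum count 10, minimum total 15) and Benjamini-Hochberg adjustment over 15250 genes, called under 0.05. SE is the log2 fold change divided by the square root of F. Within-gene levels are TMM-normalized CPM. Alternatives were DESeq2 1.42.0, limma-voom and limma on log2(FPKM + 0.1 or 1) (limma 3.58.1), median-of-ratios size factors, library sizes without mitochondrial genes, no filter, a filter of 1 CPM in every sample, summed identifiers, a replicate block, and each sample left out. Only the first edgeR fit was also run on simulated data, drawn with dispersions that edgeR estimated from these samples. The alternatives were not. Promoters are RefSeq's (GRCr8), matched by symbol, and no Rnor_6.0 genome was used.

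The members and the 16 companion lists were chosen with earlier results of these data known. Genes named by rule were every mitochondrial gene, every called gene, and the smallest p and highest FPKM of each complex. Tissue forms of complex IV and the 4 highest and 4 lowest nuclear log2 fold changes were in the rule too. So were the 3 smallest p of each companion list, not all of which are printed here. Others are named for their role. Values in replicates of 1 group differed by far more than counting noise (chi-square per degree of freedom from 23.2 to 52.6). No sample was counted as a repeat of another. Such a check cannot tell separate animals from separate libraries of 1 animal.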

Additional observations from a re-analysis of the deposited data

How the results depend on the processing

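The median log2 fold changes of nuclear and mitochondrial genes kept their direction in each setting tried, with 0.09 to 0.18 and -0.47 to -0.16 when 1 sample was left out, and the mitochondrial share of counts stayed at 3.79 to 4.30% in MCT lungs and 4.33 to 5.16% in control lungs. Genes of the chain called higher numbered 7 with DESeq2, 4 with library sizes without mitochondrial genes and 1 each with log2(FPKM + 0.1), log2(FPKM + 1) and the replicate block, 3 with the filter of 1 CPM in every sample (adding Ndufb2), and 0 to 2 without 1 sample. Those called lower numbered 3 with DESeq2, 0 with library sizes without mitochondrial genes, 0 with the replicate block and 0 to 1 without 1 sample. Over all tested genes DESeq2 called 1182 lower, and leaving out 1 sample gave 481 to 1394 higher and 212 to 978 lower. Companion genes called without 1 sample numbered 13 to 24 higher and 2 to 6 lower, against 23 and 7. The causes were not tested, beyond fewer samples in the fit.

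Over the settings tried, 24 of the 80 nuclear and 4 of the 13 mitochondrial genes took both signs. Of the genes named by rule, those that changed sign when 1 sample was left out had these lowest and highest values: Mt-atp8 -0.41 and 0.15 (above 0 without MCT replicate 2 or, at 0.02, control replicate 2), Mt-co1 -0.070 (without control replicate 3) and 0.40, Mt-co3 -0.18 and 0.084 (without control replicate 2; 0.04 without MCT replicate 2) and Mt-nd3 -0.33 and 0.15 (without control replicate 2; 0.005 without MCT replicate 2). Outside mitochondrial DNA they were Cox4i1 -0.028 and 0.072, Cox4i2 -0.020 (without MCT replicate 2) and 0.32, Cox8a -0.049 (without control replicate 1; -0.01 without MCT replicate 1) and 0.15, Ndufa1 -0.75 and 0.30 (without MCT replicate 3), Ndufa4l2 -0.14 (without MCT replicate 2) and 0.27, and the ciliated cell marker Foxj1 -0.10 (without MCT replicate 3) and 0.40. Cox4i1 was at -0.0039 with both FPKM pseudocounts.

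The replicate numbers gave no sign of pairing: same-numbered samples correlated at -0.07 to -0.0024 in their deviations from the group means. Of 3 MCT samples, 0 correlated best with their own number. With 3 samples a group this check cannot exclude a pairing. With the number as a block, 917 genes were called higher and 546 lower, against 1221 and 779. The limits are 3 samples a group and, for Cox6a2, Cox8b, Ndufa1 and Ppargc1a, fewer than 70 reads in any sample.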

Other observations

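For 6 symbols of the chain the deposited table held a further identifier that the choice of 1 per symbol set aside. An assembled locus named Ndufa13 had 17, 35 and 19 reads in MCT lungs, against 65, 75 and 86 reads in control lungs, and fell by 1.66 on the log2 scale (SE 0.32, edgeR adjusted p = 0.0134). The annotated Ndufa13, an accessory subunit of complex I, had 998, 943 and 852 reads in MCT lungs, against 906, 679 and 1059 reads in control lungs, with a log2 fold change of 0.13 (SE 0.12, edgeR adjusted p = 0.545). A second Cox6b1 identifier had 48, 66 and 45 reads in MCT lungs, against 32, 30 and 34 reads in control lungs (log2 fold change 0.74, SE 0.28, edgeR adjusted p = 0.113). A second Ndufa10l1 identifier varied from 1 to 99 reads in MCT lungs and from 65 to 206 reads in control lungs.

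Assembled loci as a class, to which the loci named Atp5j2 and Ndufa13 belong, had a median log2 fold change of -0.24 over 1157 tested. Of the 1157, 54 were called higher and 97 lower in MCT lungs (edgeR). Over all tested genes, 8.01% were called higher and 5.11% lower. The assembled loci took 1.74 to 1.86% of the counts in MCT lungs and 2.07 to 2.16% in control lungs, and the groups did not overlap. The part of this class-wide difference in the values of these loci was not tested.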
